A study of Homo sapiens with 12 samples.

Results

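The 10 genes described here code for adhesion molecules of the cell surface. They are the 4 cadherins CDH1, CDH2, CDH3 and CDH13 and the 6 immunoglobulin-type adhesion molecules ICAM1, VCAM1, MCAM, L1CAM, ALCAM and NRCAM. They were given as a list of symbols, chosen with earlier results of these data known. Each was matched to 1 of the 40173 Ensembl gene IDs of the table of TPM values, the usual unit of transcript abundance. TPM divides the signal of a transcript by its length and scales every library to the same total, so levels of different genes can be set side by side. A minimum of 2 TPM, as the mean of at least 1 condition, was reached by 12773 gene IDs and by 5 of the 10 genes, CDH2, CDH3, ICAM1, MCAM and NRCAM. The other 5, CDH1, CDH13, VCAM1, L1CAM and ALCAM, were below it in every condition.

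624Mel is an established human melanoma cell line. Sequencing covered 4 conditions and 3 RNA libraries of each, to ask how loss of MITF alters the response to interferon gamma (IFNγ). All cells were reverse transfected with a Silencer Select siRNA, either the control siCTRL or siMITF, which targets MITF, the transcription factor that drives the melanocytic differentiation programme. In siCTRL + IFNγ and siMITF + IFNγ cells, IFNγ was added to 5 ng/mL 24 h after the transfection and left for 24 h, whereas siCTRL and siMITF cells received none. The model is 1 cell line and a transient knockdown. The p-values rest on the spread between libraries of the same condition, pooled over the 4 conditions. The study's methods describe experiments in general as independent biological replicates, and the labels of these libraries do not name their cultures.

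Cadherins bind to cadherins of the neighbouring cell in a calcium-dependent manner, and the classical ones, CDH1 (E-cadherin), CDH2 (N-cadherin) and CDH3 (P-cadherin), are linked to actin through catenins. Melanocytes of the skin are attached to keratinocytes mainly by E-cadherin, and a change from E-cadherin to N-cadherin is a textbook feature of melanoma progression. The immunoglobulin-type molecules are more varied. ICAM1 and VCAM1 are ligands of leukocyte integrins and are known targets of inflammatory cytokines, while MCAM, L1CAM, ALCAM and NRCAM were described on melanoma cells or neurons.

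The knockdown was checked first. Mean MITF was 211 TPM in siCTRL and 216 TPM in siCTRL + IFNγ libraries, against 42.5 and 48.0 TPM in siMITF and siMITF + IFNγ libraries, and the highest siMITF-transfected library (55.1) lay below the lowest siCTRL-transfected library (158). The libraries had 11850 to 12377 gene IDs at 2 TPM or more each, and mitochondrial genes took 7.42% to 16.9% of TPM. Their depth is unknown, because TPM does not keep it, and no detection limit can be given. Of 5 marker lists, the melanocytic one reached 2 TPM with 7 of 7 genes, whereas keratinocyte or epithelial markers did so with 0 of 4 (highest value of any library 0.145, KRT1 listed at 0), endothelial markers with 0 of 4 (highest 0.757), fibroblast markers with 1 of 5 (LUM, up to 7.42) and leukocyte markers with 1 of 4 (LYZ, up to 5.22, with CD3E listed at 0). The melanocytic markers summed to 5548 to 7382 TPM in siCTRL-transfected and to 1649 to 2016 TPM in siMITF-transfected libraries. PMEL made up most of this sum, with means that went from 4827 to 1078 TPM with siMITF in cells without IFNγ, whereas SOX10 had 263 and 226 TPM and S100B 81.8 and 167 TPM, so the genes of the list did not all move together. Their part in the results below was not tested. In RNA from a whole culture, fewer cells of a kind and less RNA per cell cannot be told apart.

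Promoter windows were found in RefSeq (GRCh38.p14) for 7 of the 10 genes, with 11 starts in all, each window running from 250 bases before the start to 50 bases after it. CDH1, CDH3 and CDH13 were not matched. The 5 windows printed here belong to the 2 ligands of leukocyte integrins and to 3 genes that differed between siMITF and siCTRL libraries. ICAM1 (chr19:10270870-10271169, plus strand) and VCAM1 (chr1:100719492-100719791, plus strand) are printed for the contrast in level described below, and MCAM (chr11:119317081-119317380, minus strand), CDH2 (first of 2 starts, chr18:28177081-28177380, minus strand) and NRCAM (first of 3 starts, chr7:108456387-108456686, minus strand) for their rise after siMITF. Sequences run 5′ to 3′ on the strand of the gene, and capitals mark the letters of a motif match.
ICAM1: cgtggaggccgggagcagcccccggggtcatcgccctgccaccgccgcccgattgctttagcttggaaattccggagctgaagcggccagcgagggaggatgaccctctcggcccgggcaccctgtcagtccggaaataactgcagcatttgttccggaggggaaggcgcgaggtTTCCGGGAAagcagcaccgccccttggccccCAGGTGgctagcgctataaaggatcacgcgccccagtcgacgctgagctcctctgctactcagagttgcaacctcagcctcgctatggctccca
VCAM1: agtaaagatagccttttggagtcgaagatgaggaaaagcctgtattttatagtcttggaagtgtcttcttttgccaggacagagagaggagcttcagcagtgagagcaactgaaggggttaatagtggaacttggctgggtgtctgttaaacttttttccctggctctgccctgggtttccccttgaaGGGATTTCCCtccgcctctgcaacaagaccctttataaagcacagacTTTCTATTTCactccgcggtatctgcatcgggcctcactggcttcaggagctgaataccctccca
MCAM: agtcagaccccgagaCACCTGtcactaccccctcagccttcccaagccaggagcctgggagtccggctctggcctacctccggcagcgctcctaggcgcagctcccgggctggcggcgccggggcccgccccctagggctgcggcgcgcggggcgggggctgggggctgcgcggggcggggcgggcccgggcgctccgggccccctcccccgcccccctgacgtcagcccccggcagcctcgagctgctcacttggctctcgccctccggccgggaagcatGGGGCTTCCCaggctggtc
CDH2: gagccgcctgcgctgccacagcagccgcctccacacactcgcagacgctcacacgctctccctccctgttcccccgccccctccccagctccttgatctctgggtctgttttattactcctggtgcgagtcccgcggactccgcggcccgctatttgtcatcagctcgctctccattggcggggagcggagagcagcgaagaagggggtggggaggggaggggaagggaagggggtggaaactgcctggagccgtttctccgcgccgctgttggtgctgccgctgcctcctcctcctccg
NRCAM: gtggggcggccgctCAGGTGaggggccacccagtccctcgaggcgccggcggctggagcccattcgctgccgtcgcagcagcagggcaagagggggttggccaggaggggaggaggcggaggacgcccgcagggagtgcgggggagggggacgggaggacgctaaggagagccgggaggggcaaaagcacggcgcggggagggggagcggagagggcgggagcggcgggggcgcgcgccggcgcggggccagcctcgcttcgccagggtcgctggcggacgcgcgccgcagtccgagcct

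The motifs searched on both strands were the interferon gamma-activated site (GAS, TTCNNNGAA), a core of the interferon-stimulated response element (ISRE, GAAA followed by any 2 bases and GAAA), the NF-κB (kB) motif, and 3 E-boxes, CACGTG and CATGTG, known to be bound by MITF, and CACCTG, known to be bound by the SNAI and ZEB factors. No 2 of the motifs overlapped in the printed windows. The ICAM1 window held a GAS match 75 to 67 bases before the start, a motif held by 7.66% of the 35116 promoters of the same length, and a CACCTG match on the minus strand. In VCAM1 a kB match lay 62 to 53 bases before the start and an ISRE core match 15 to 6 bases before it, motifs held by 11.3% and 3.57% of all promoters. MCAM had a CACCTG match and, after the start, a kB match, and NRCAM had a CACCTG match in its first window and a CATGTG match on the minus strand of its second. A CACCTG match, held by 20.6% of promoters, was also found in ALCAM. No listed motif was found in the windows of CDH2 or L1CAM, and no CACGTG match (7.26% of promoters) in any of the 11 windows. Only exact matches were marked, so a site that differs from a motif by a letter is not shown. A match describes the letters of a window only, and binding was not measured.

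Levels of the 10 genes spanned a wide range in every condition. In siCTRL libraries MCAM was the highest with a mean of 116 TPM ± 9.75 (SD, n = 3), followed by ICAM1 with 49.5 ± 3.94 and CDH3 with 39.2 ± 2.49. NRCAM (1.43 ± 0.329), CDH2 (0.983 ± 0.222) and ALCAM (0.942 ± 0.184) formed a second tier, and their libraries overlapped. CDH13, CDH1 and L1CAM were each below 0.6 TPM in every siCTRL library, and VCAM1 was listed at 0 in all 3. P-cadherin was thus the cadherin with the highest level among the 4 in all 4 conditions, and E-cadherin, the cadherin of normal melanocytes, did not exceed 0.698 TPM in any library.

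**Figure D1:**
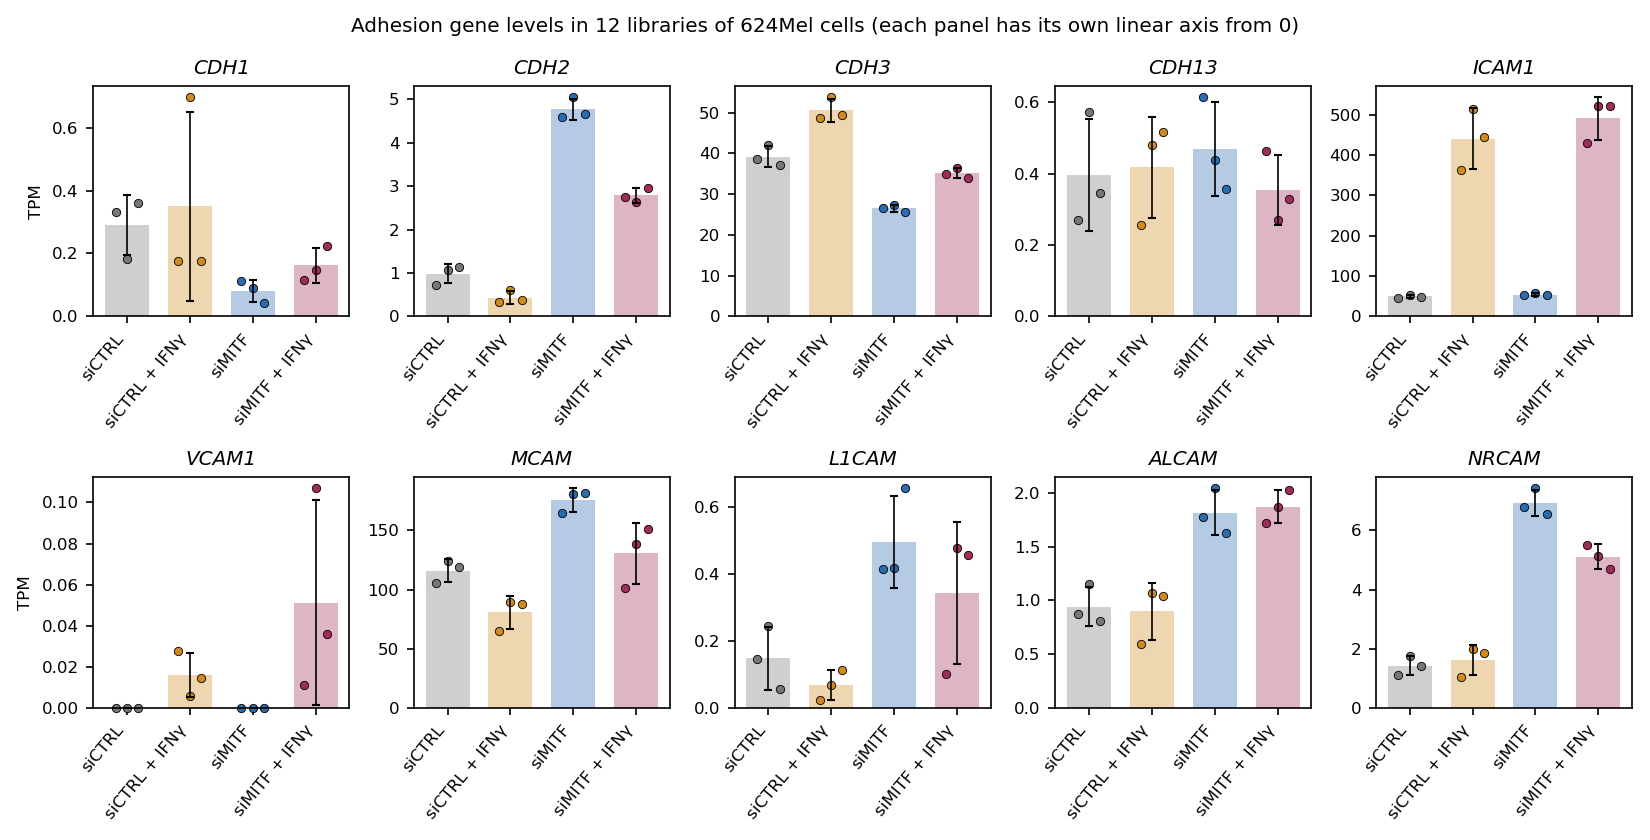
Expression of the 10 genes in TPM (linear axes from 0, 1 panel per gene with its own scale). Bars are means of 3 libraries, error bars are SD and points are single libraries; ICAM1 is high in both IFNγ conditions, CDH2 and NRCAM are high in both siMITF conditions, and CDH3 is lowest in siMITF libraries.

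Changes between conditions were tested with limma on log2(TPM + 1), so a fold change given as log2 understates the change of genes near or below 1 TPM. The 5 genes at 2 TPM or more were tested among 12773 gene IDs. The other 5 come from the same model fitted without a minimum, over 29003 gene IDs. Because CDH2 and NRCAM reached the minimum only through siMITF conditions, their siMITF effects and the counts over the 10 genes are also taken from the fit without a minimum.

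The first comparison asks what MITF knockdown does without IFNγ. N-cadherin, NRCAM, ALCAM and MCAM rose and P-cadherin fell. In the fit without a minimum, 5 of the 10 genes passed an adjusted p of 0.05 (limma), 4 higher and 1 lower, against 16.6% of the 29003 gene IDs (10.2% higher and 6.43% lower). With the replicate number added as a block, a fit chosen after seeing the data, 6 passed, 5 higher and 1 lower, against 6166 of the 29003. Among the 12773 gene IDs above the minimum the share was 34.8%, 55% had libraries that did not overlap between the conditions, and their median log2 fold change was 0.06.

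CDH2, the cadherin of neural and mesenchymal cells, was measured at 0.728, 1.08 and 1.14 TPM in siCTRL libraries and at 4.59, 5.06 and 4.65 TPM in siMITF libraries. Every siMITF library was higher than every siCTRL library, and the ratio of the means was 4.85. The log2 fold change was 1.55 ± 0.11 (SE, adjusted p = 1.1e-05, limma without a minimum). With IFNγ the values were 0.321, 0.601 and 0.366 TPM in siCTRL and 2.76, 2.64 and 2.96 TPM in siMITF libraries. The groups were again apart, with a ratio of 6.50 and a log2 fold change of 1.41 ± 0.11 (adjusted p = 2.2e-05, limma without a minimum).

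CDH3, the P-cadherin of basal keratinocytes and hair follicles, went the other way. Its siCTRL libraries had 38.7, 41.9 and 37.1 TPM and its siMITF libraries 26.6, 27.4 and 25.6 TPM. All siMITF libraries were lower than all siCTRL libraries, by a factor of 1.48 between the means, and CDH3 fell by 0.55 ± 0.07 on the log2 scale (adjusted p = 1.0e-04, limma). In IFNγ-treated cells the levels were 48.6, 53.9 and 49.3 TPM after siCTRL and 34.99, 36.4 and 34.1 TPM after siMITF, again without overlap. There CDH3 fell by 0.51 ± 0.07 on the log2 scale (adjusted p = 1.9e-04, limma), and within each replicate number the change was -0.46, -0.55 and -0.52.

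CDH1 and CDH13, a cadherin anchored to the membrane by a lipid and lacking a cytoplasmic tail, stayed near the bottom of the scale. CDH1 had 0.331, 0.183 and 0.362 TPM in siCTRL and 0.112, 0.0894 and 0.0428 TPM in siMITF libraries. These groups did not overlap, yet the log2 difference of -0.25 ± 0.13 did not pass (adjusted p = 0.25, limma without a minimum). With IFNγ the CDH1 libraries overlapped, at 0.175, 0.698 and 0.176 TPM after siCTRL and 0.116, 0.148 and 0.224 TPM after siMITF. CDH13 ran from 0.255 to 0.614 TPM over the 12 libraries, its groups overlapped in both comparisons, and its log2 differences were 0.08 and -0.06, with 95% intervals of -0.16 to 0.31 and -0.30 to 0.17.

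The balance between N- and E-cadherin was followed within each library as the log2 ratio of CDH2 to CDH1, each plus 1 TPM. It was 0.61 ± 0.22 (SD, n = 3) in siCTRL and 0.10 ± 0.16 in siCTRL + IFNγ libraries, and 2.41 ± 0.08 in siMITF and 1.70 ± 0.04 in siMITF + IFNγ libraries. The ratio was therefore higher in both siMITF conditions, and CDH1 was below 1 TPM throughout. The ratio of CDH1 to CDH3 was -4.96 ± 0.20, -5.28 ± 0.23, -4.67 ± 0.03 and -4.96 ± 0.10 in the same order. With such low CDH1 levels both ratios depend on the added constant.

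Among the immunoglobulin-type molecules, NRCAM, a neuronal relative of L1CAM that binds ankyrins, had the largest rise on the log2 scale of the 10 genes after siMITF alone. It was at 1.11, 1.77 and 1.40 TPM in siCTRL and at 6.80, 7.42 and 6.57 TPM in siMITF libraries. The groups were far apart, with a ratio of 4.85 and a log2 fold change of 1.71 ± 0.16 (adjusted p = 5.4e-05, limma without a minimum). In the presence of IFNγ, 1.05, 1.9996 and 1.85 TPM after siCTRL stood against 5.52, 5.12 and 4.70 TPM after siMITF. That is a ratio of 3.13 and a log2 fold change of 1.23 ± 0.16 (adjusted p = 5.0e-04, limma without a minimum), again without overlap.

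MCAM, also known as CD146 or melanoma cell adhesion molecule, had the highest level of the 10 genes in cells without IFNγ. Its libraries had 105, 124 and 119 TPM after siCTRL and 164, 181 and 182 TPM after siMITF. They did not overlap, and the log2 fold change was 0.60 ± 0.15 (adjusted p = 0.0080, limma), a ratio of 1.51 between the means. With IFNγ, MCAM was at 64.6, 89.8 and 87.8 TPM after siCTRL and at 102, 138 and 151 TPM after siMITF. The lowest siMITF + IFNγ library was above the highest siCTRL + IFNγ library, and the log2 fold change was 0.68 ± 0.15 (adjusted p = 0.0038, limma). Exons of MCAM overlap those of CBL on the opposite strand, and the library kit does not mark strand, so reads of the overlap cannot be told apart. CBL had at most 11.2 TPM in a condition.

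ALCAM (CD166), the ligand of CD6 on T cells, was below 2 TPM on average in all conditions. Its 3 libraries had 0.870, 1.15 and 0.805 TPM after siCTRL and 1.78, 2.04 and 1.63 TPM after siMITF. The groups were apart, with a ratio of 1.93 and a log2 fold change of 0.54 ± 0.12 (adjusted p = 0.012, limma without a minimum). IFNγ-treated libraries had 0.595, 1.07 and 1.04 TPM after siCTRL and 1.72, 1.87 and 2.02 TPM after siMITF, a ratio of 2.08 without overlap, and a log2 fold change of 0.60 ± 0.12 (adjusted p = 0.0068, limma without a minimum).

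L1CAM, an axonal adhesion molecule, was measured at 0.146, 0.244 and 0.0559 TPM after siCTRL and at 0.416, 0.417 and 0.656 TPM after siMITF. The groups did not overlap, and the log2 difference of 0.38 ± 0.12 just missed the threshold (adjusted p = 0.051, limma without a minimum). It passed when the replicate number was added as a block (adjusted p = 0.038, limma without a minimum). With IFNγ the libraries overlapped, at 0.0228, 0.0685 and 0.112 TPM against 0.09995, 0.479 and 0.456 TPM, and the log2 difference was 0.32 ± 0.12 (adjusted p = 0.10).

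ICAM1, the ligand of the leukocyte integrins LFA-1 and Mac-1, was measured at 46.5, 54.0 and 48.0 TPM after siCTRL and at 53.1, 57.2 and 52.2 TPM after siMITF. These libraries overlapped, and the log2 difference of 0.13 ± 0.12 did not pass (adjusted p = 0.44, limma, 95% interval -0.13 to 0.39). With IFNγ, at 363, 515 and 444 TPM after siCTRL and 431, 522 and 522 TPM after siMITF, the libraries overlapped too and the difference was 0.17 ± 0.12 (adjusted p = 0.32, limma, 95% interval -0.09 to 0.43), and it passed only with each library centred on its median (0.15, adjusted p = 0.039, limma). VCAM1, the ligand of the integrin α4β1, was listed at 0 in all 6 libraries without IFNγ, so no fold change can be given there.

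For siMITF with IFNγ present, the count in the fit without a minimum was again 5 of the 10 genes, 4 higher and 1 lower, against 16.1% of gene IDs (9.31% higher and 6.78% lower). Above the minimum 33.1% of gene IDs passed, and 38.3% had libraries that did not overlap.

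The second question is what IFNγ did to the same genes. ICAM1 rose by a factor of 8.90 after siCTRL and 9.07 after siMITF, CDH3 rose modestly, and CDH2 fell. In siCTRL cells 3 of the 10 genes passed in the fit without a minimum, 2 higher and 1 lower, against 5.17% of gene IDs (3.08% higher and 2.09% lower), and above the minimum 12.9% passed and 29.7% had libraries that did not overlap. In siMITF cells it was likewise 3 of the 10, 2 higher and 1 lower, against 8.74% (4.15% higher and 4.59% lower), and above the minimum 20.2% passed and 40.5% had libraries that did not overlap. Above the minimum the median log2 fold change of all gene IDs was -0.07 in siCTRL and -0.10 in siMITF cells. The changes below are to be read relative to these shifts. After rescaling without mitochondrial genes the medians were -0.05 and -0.06. With the block added and no minimum, 4 of the 10 genes passed in siCTRL cells and 4 in siMITF cells, 2 higher and 2 lower in each. Over the 29003 gene IDs 2497 and 3869 passed (limma).

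ICAM1 went from 46.5, 54.0 and 48.0 TPM in siCTRL to 363, 515 and 444 TPM in siCTRL + IFNγ libraries. The ratio of the means was 8.90 and the log2 fold change 3.12 ± 0.12 (adjusted p = 8.4e-10, limma). In siMITF cells 53.1, 57.2 and 52.2 TPM became 431, 522 and 522 TPM, a ratio of 9.07 and a log2 fold change of 3.15 ± 0.12 (adjusted p = 5.7e-10, limma). No treated library came near an untreated one, and ICAM1 became the gene with the highest level among the 10. The interaction, that is the difference between both IFNγ effects, was 0.04 ± 0.17 (adjusted p = 1.00, limma) with a 95% interval of -0.33 to 0.40.

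VCAM1 stayed at trace level under the same treatment. It had 0.0276, 0.00593 and 0.0145 TPM in siCTRL + IFNγ and 0.0109, 0.107 and 0.0361 TPM in siMITF + IFNγ libraries. All 6 treated libraries were above the 6 untreated ones, which were listed at 0, but the log2 differences of 0.02 ± 0.03 and 0.07 ± 0.03 did not pass (adjusted p = 0.81 and 0.16, limma without a minimum).

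CDH3 was also higher in every treated library. It rose from 37.1 to 41.9 TPM in siCTRL to 48.6 to 53.9 TPM in siCTRL + IFNγ libraries, by 0.36 ± 0.07 on the log2 scale (adjusted p = 0.0067, limma). After siMITF it rose from 25.6 to 27.4 TPM to 34.1 to 36.4 TPM, by 0.39 ± 0.07 (adjusted p = 0.0026, limma). The ratios of the means were 1.29 and 1.33.

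CDH2 moved in the opposite direction. After siCTRL the treated libraries (0.321 to 0.601 TPM) were all below the untreated ones (0.728 to 1.14 TPM), and CDH2 fell by 0.47 ± 0.12 on the log2 scale (adjusted p = 0.019, limma). After siMITF the libraries went from between 4.59 and 5.06 TPM to between 2.64 and 2.96 TPM, and CDH2 fell by 0.61 ± 0.12 on the log2 scale (adjusted p = 0.0028, limma). The untreated mean was 2.29 times the treated one after siCTRL and 1.71 times after siMITF. In siCTRL cells both means were below 2 TPM, and the call there was lost without siCTRL replicate 2 or 3 or siCTRL + IFNγ replicate 1 or 3 (adjusted p = 0.068 to 0.082, limma) and with only the compared conditions in the fit (adjusted p = 0.065).

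MCAM was lower in every treated library than in any untreated library of the same siRNA. After siCTRL it went from 105 to 124 TPM down to 64.6 to 89.8 TPM and fell by 0.53 ± 0.15 on the log2 scale (adjusted p = 0.037, limma). After siMITF it went from 164 to 182 TPM to 102 to 151 TPM, and the log2 difference of -0.44 ± 0.15 missed the threshold (adjusted p = 0.055, limma) but passed with the replicate number as a block (adjusted p = 0.0011, limma). Within replicate numbers 1, 2 and 3 the log2 changes were -0.70, -0.46 and -0.43 after siCTRL and -0.69, -0.38 and -0.26 after siMITF, so each number showed the same direction. The siCTRL call was lost in the fit without a minimum (adjusted p = 0.11, or 0.0090 with the block added) and without siCTRL replicate 2 or 3, siCTRL + IFNγ replicate 1 or 3, or any siMITF replicate (adjusted p = 0.051 to 0.13, limma). The siMITF difference passed without siCTRL + IFNγ replicate 1 or siMITF + IFNγ replicate 3 (adjusted p = 0.023 and 0.030, limma).

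NRCAM did not change detectably with IFNγ in siCTRL cells, where the libraries overlapped and the log2 difference was 0.11 ± 0.15 (adjusted p = 0.71, limma, 95% interval -0.22 to 0.43). In siMITF cells its treated libraries (4.70 to 5.52 TPM) were all below the untreated ones (6.57 to 7.42 TPM). The log2 difference of -0.38 ± 0.15 did not pass (adjusted p = 0.096, limma). It did with the replicate number as a block (adjusted p = 0.042, limma), with only the compared conditions in the fit (adjusted p = 0.045) and without siCTRL + IFNγ replicate 1 (adjusted p = 0.035). Without a minimum the difference did not pass, with or without the block (limma). NRCAM had the largest interaction of the 5 tested genes, -0.48 ± 0.21, with a 95% interval of -0.94 to -0.02 before adjustment and an adjusted p of 0.62 (limma). In the fit without a minimum the unadjusted p of this interaction was not below 0.05 (limma).

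The remaining genes gave no IFNγ call. ALCAM differed by -0.04 and 0.03 on the log2 scale after siCTRL and siMITF, with 95% intervals of -0.30 to 0.23 and -0.24 to 0.30. The differences of L1CAM were -0.10 and -0.16, those of CDH13 were 0.02 and -0.12, and those of CDH1 were 0.04 and 0.10. Each of their adjusted p-values was at least 0.489 (limma without a minimum). CDH1 was the only one of these 4 whose treated and untreated libraries were apart, after siMITF, at levels of at most 0.224 TPM.

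**Figure D2:**
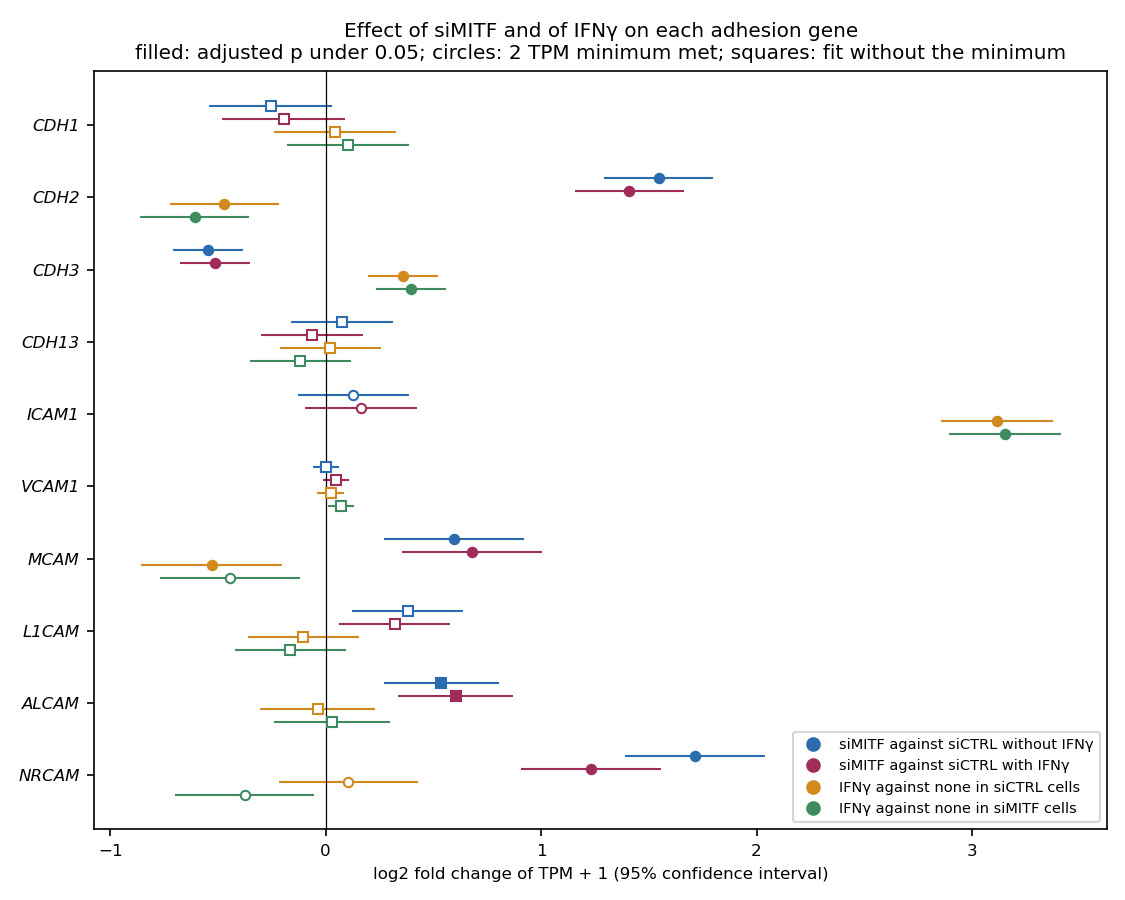
Log2 fold changes of the 10 genes on the log2(TPM + 1) scale in 4 comparisons, with 95% intervals. Filled symbols passed an adjusted p of 0.05 (limma). Circles are from the fit of genes at 2 TPM or more and squares from the fit without a minimum. CDH2 and NRCAM are drawn as circles, although they reached the minimum only through siMITF conditions. Their siMITF results in the text are from the fit without a minimum, where they passed as well. The siMITF effects of CDH2 and NRCAM and the IFNγ effects of ICAM1 lie beyond 1. CDH3 lies on opposite sides of 0 for siMITF and IFNγ.

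The interaction was tested for every gene to ask whether the IFNγ effect depended on MITF. None of the 10 genes passed in either fit (limma), against 0.947% of the 12773 gene IDs and 0.486% of the 29003. At an unadjusted p of 0.05, 1 of the 5 tested genes passed, NRCAM, as did 980 of the 12773 gene IDs. In the fit without a minimum 0 of the 10 genes passed at that level, against 1996 of the 29003 gene IDs (limma). The intervals were -0.49 to 0.22 for CDH2, -0.19 to 0.26 for CDH3 and -0.38 to 0.55 for MCAM on the log2 scale. These are 95% intervals for log2(TPM + 1), so differences between both IFNγ effects of any size inside them are compatible with the data on that scale. For CDH2, near 1 TPM in siCTRL cells, even the sign depended on the processing. Its interaction ran from -0.19 to 0.29 over the settings with a minimum, which include pseudocounts of 0.5 and 0.1. The adjusted p was at least 0.675 in each (limma).

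Both treatments together placed CDH2 and CDH3 in reverse order. CDH2 was highest in siMITF (4.59 to 5.06 TPM), then siMITF + IFNγ (2.64 to 2.96), siCTRL (0.728 to 1.14) and siCTRL + IFNγ (0.321 to 0.601), with no overlap between neighbours. CDH3 was highest in siCTRL + IFNγ (48.6 to 53.9 TPM), then siCTRL (37.1 to 41.9), siMITF + IFNγ (34.1 to 36.4) and siMITF (25.6 to 27.4), also without overlap. MCAM had the order of CDH2 by its means of 176, 130.5, 116 and 80.8 TPM, but the siMITF + IFNγ libraries (102 to 151) spanned the siCTRL libraries (105 to 124).

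**Figure D3:**
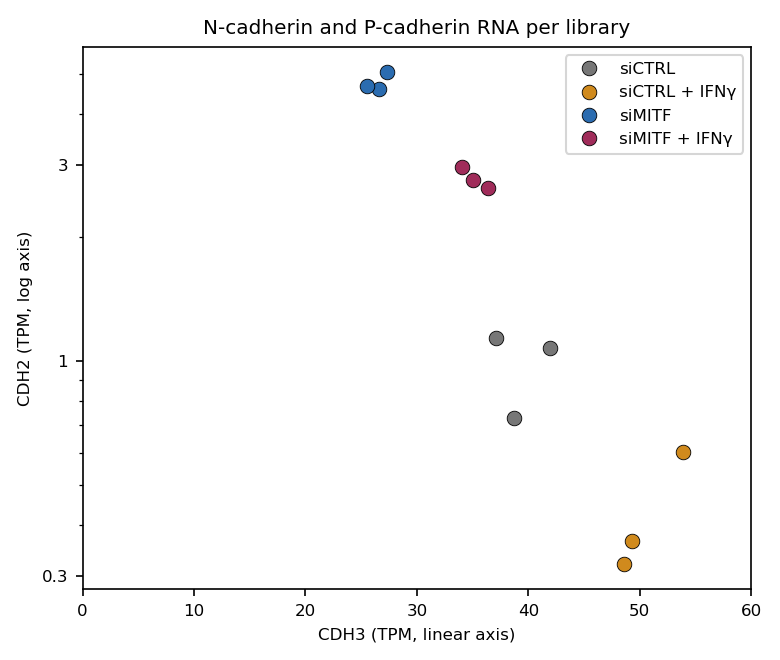
CDH3 (linear axis, TPM) against CDH2 (log axis, TPM) in the 12 libraries, coloured by condition. The 4 conditions form separate groups, from siCTRL + IFNγ with the highest CDH3 and lowest CDH2 to siMITF with the lowest CDH3 and highest CDH2.

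The comparison of siMITF + IFNγ with siCTRL shares libraries with those above and adds no independent evidence. In it CDH2 was higher by 0.94 ± 0.11 on the log2 scale (adjusted p = 1.9e-04, limma without a minimum), NRCAM by 1.34 ± 0.16 (adjusted p = 1.9e-04, limma without a minimum), ICAM1 by 3.28 ± 0.12 (adjusted p = 3.1e-10, limma) and ALCAM by 0.57 ± 0.12 (adjusted p = 0.0069, limma without a minimum). These are the 4 of 10 genes that passed in the fit without a minimum, all higher, where 22.1% of gene IDs did (11.8% higher and 10.3% lower), against 44.5% above the minimum, where 53.1% had libraries that did not overlap. With the block added and no minimum 5 passed, 4 higher and 1 lower, against 7903 of the 29003 gene IDs (limma). MCAM differed by 0.15 ± 0.15 (adjusted p = 0.44, limma). CDH3 differed by -0.15 ± 0.07 without overlap and did not pass (adjusted p = 0.12, limma), but did with the replicate number as a block (adjusted p = 0.037, limma).

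The wider families were described from lists of related genes, counted in the fit without a minimum, since several list genes reached 2 TPM only after siMITF or IFNγ. The shares of all 29003 gene IDs to set beside the counts are those given above, 16.6% for siMITF without IFNγ, 16.1% with IFNγ, and 5.17% and 8.74% for IFNγ in siCTRL and siMITF cells. Of 25 other cadherins 10 passed after siMITF without IFNγ, 8 higher and 2 lower, and their median log2 fold change was 0.05 against 0.01 over all gene IDs. PCDH1 rose from 1.78 TPM ± 0.17 to 11.4 ± 0.30 (log2 2.16, adjusted p = 9.5e-06, limma), CDH19, a cadherin of Schwann cell precursors, from 13.9 ± 1.6 to 40.9 ± 2.2 (log2 1.496, adjusted p = 8.6e-05) and FAT1 from 42.5 ± 3.8 to 91.9 ± 12 (log2 1.09, adjusted p = 8.4e-05). PCDH9 rose by 0.75 on the log2 scale. With IFNγ present 8 passed, all higher. Above the minimum CDH7 was lower there, at -0.40 (adjusted p = 0.030, limma), where 33.1% of gene IDs passed. The higher calls there are not counted, because PCDH9 and PCDH18 reached a mean of 2 TPM only after siMITF. IFNγ gave 1 call in siCTRL cells, CDH7 at -0.56, and 2 in siMITF cells, PCDH18 at 0.85 and PCDH10 at -0.24. Above the minimum 2 were lower in siCTRL cells, CDH7 and DSG2, where 12.9% of gene IDs passed. In siMITF cells CDH19 was higher there, at 0.48, and CDH7 lower, at -0.40 (adjusted p = 0.029 and 0.044, limma), where 20.2% passed. PCDH18 and CDH8 passed too, but PCDH18 reached a mean of 2 TPM only in siMITF + IFNγ libraries and CDH8 only in siMITF libraries.

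Of 10 catenins and junction linkers, which tie cadherins to actin, 6 passed after siMITF without IFNγ, 4 higher and 2 lower, with a median log2 fold change of 0.27. The neuronal alpha-catenin CTNNA2 rose from 3.44 to 12.4 TPM (log2 1.60, adjusted p = 2.0e-04, limma) and PKP4 from 34.8 to 59.2 TPM (log2 0.75). Beta-catenin, CTNNB1, fell from 492 to 326 TPM (by 0.59 on the log2 scale, adjusted p = 0.016) and vinculin, VCL, fell from 33.4 to 20.9 TPM (by 0.66 on the log2 scale, adjusted p = 0.037). With IFNγ present 3 passed, CTNNA2, PKP4 and CTNNA1, all higher. Above the minimum 4 passed higher and 2 lower there, where 33.1% of gene IDs passed. The lower ones were CTNNB1 at -0.45 and VCL at -0.52 (adjusted p = 0.017 and 0.033, limma). IFNγ itself gave no call on this list in this fit (limma), with 2 genes at an unadjusted p under 0.05 in each background. Above the minimum CTNND2 passed in siCTRL cells, at -0.69.

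Of 31 other immunoglobulin-type adhesion molecules 15 passed after siMITF without IFNγ, 12 higher and 3 lower, with a median of 0.29, and 15 with IFNγ present, again 12 higher and 3 lower. The tight junction molecule JAM2 rose from 0.816 to 3.96 TPM (log2 1.45), CADM4 from 38.04 to 92.8 TPM (log2 1.26) and NECTIN2, a ligand of receptors on natural killer and T cells, from 19.2 to 39.9 TPM (log2 1.02). CEACAM1 fell from 60.1 to 24.4 TPM, by 1.27 on the log2 scale (adjusted p = 3.8e-06, limma).

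IFNγ gave 7 calls on the same list in siCTRL cells and 7 in siMITF cells, 5 higher and 2 lower in each. ICAM4, which starts 339 bp after the end of ICAM1 on chromosome 19, went from 0.316 to 6.87 TPM in siCTRL cells (log2 2.58, adjusted p = 1.4e-06, limma) and from 0.315 to 4.90 TPM in siMITF cells (log2 2.16). CEACAM1 rose from 60.1 to 137 TPM and from 24.4 to 99.5 TPM (log2 1.17 and 1.99). CD47, the signal against phagocytosis, rose by 0.86 and 0.81 on the log2 scale.

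Of 14 partners of the 10 genes, such as integrins, ankyrins and sheddases, 2 passed after siMITF without IFNγ, close to the share of all gene IDs. They were ANK3, an ankyrin to which L1-type molecules bind, at -1.01, and the leukocyte integrin chain ITGAL at 0.24, from 0.0442 to 0.235 TPM. With IFNγ present 1 passed, ANK3 at -0.71. IFNγ gave no call in this fit (limma), with 2 genes in siCTRL and 1 in siMITF cells at an unadjusted p under 0.05. Above the minimum ITGB2 passed in siMITF cells, at -0.46.

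Of 6 transcription factors known to act on cadherin genes 5 were above 0. SNAI2 fell from 41.5 TPM ± 2.5 to 16.0 ± 0.81 after siMITF, by 1.32 on the log2 scale (adjusted p = 8.3e-06, limma), and by 1.495 with IFNγ present. SNAI1 was higher after siMITF, by 0.43 (adjusted p = 0.044, limma), and fell with IFNγ by 0.77 on the log2 scale in siCTRL cells and by 1.11 in siMITF cells. With IFNγ present ZEB1 also passed for siMITF, at 0.55, with means of 0.291 and 0.899 TPM. These were 2 of 5 calls for siMITF with or without IFNγ and 1 of 5 for IFNγ in either background. Above the minimum ZEB2 at 0.35 and TWIST1 at -0.34 passed beside SNAI2 for siMITF with IFNγ present (adjusted p = 0.041 and 0.028, limma). There 33.1% of gene IDs passed.

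Genes with the most similar profile were looked up for the 5 genes above the minimum, by the root mean square difference of log2(TPM + 1) over the 12 libraries after each gene was centred on its mean. For CDH2 these were MAP2 (0.119) and PDZRN3 (0.140), against a root mean square of 0.794 of CDH2 about its own mean. CDH3 was closest to CREM (0.0735) and NQO1 (0.0813), ICAM1 to PARP14 (0.152) and PSMB8 (0.159), MCAM to NR4A1 (0.0910) and SPRED1 (0.0932), and NRCAM to TWSG1 (0.109) and KIFAP3 (0.113). MAP2, for instance, had mean levels of 21.7 and 15.7 TPM after siCTRL without and with IFNγ, and of 67.7 and 40.4 TPM after siMITF. PARP14 had 6.78, 64.8, 6.14 and 71.5 TPM in the same order. The 12 libraries share the same 4 conditions, so a small difference describes a like response to them.

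The genes lie apart in the genome except for CDH3 and CDH1, neighbours on chromosome 16 (GRCh38, GENCODE 44). CDH3 (ENSG00000062038) spans 68636189 to 68727468 and CDH1 (ENSG00000039068) 68737292 to 68835537 on the plus strand, with 9823 bp between them. CDH3 was at 25.6 TPM or more in every library and CDH1 below 0.7. ICAM1 (ENSG00000090339, chromosome 19, 10271093 to 10286615, plus strand) is followed by ICAM4 and ICAM5, the latter below the minimum. The other cadherins of the list lie apart, CDH2 (ENSG00000170558) on chromosome 18 from 27932879 to 28177946 (minus strand) and CDH13 (ENSG00000140945) on chromosome 16 from 82626965 to 83800640 (plus strand). Among the immunoglobulin-type genes, the annotation places VCAM1 (ENSG00000162692) on chromosome 1 from 100719742 to 100739045 (plus strand), MCAM (ENSG00000076706) on chromosome 11 from 119308529 to 119321521 (minus strand) and L1CAM (ENSG00000198910) on chromosome X from 153861514 to 153886173 (minus strand). It places ALCAM (ENSG00000170017) on chromosome 3 from 105366909 to 105576900 (plus strand) and NRCAM (ENSG00000091129) on chromosome 7 from 108147623 to 108456717 (minus strand). CDH1, CDH2, CDH3, CDH13, ICAM1 and L1CAM share exon sequence with antisense transcripts that were not analysed here, and without strand information the reads of such overlaps cannot be told apart.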

How the data were processed

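RNA of 624Mel cells was sequenced from TruSeq RNA v2 libraries, which do not mark strand. Per the submitters' processing notes the authors trimmed reads with Trimmomatic 0.39 and quantified them with kallisto on the Ensembl GRCh38 transcriptome. The deposited unit is TPM, 1 value per gene ID in each library. The Ensembl release and the tool that summed transcripts are not given in the sources used here. The authors ran DESeq2 1.26.0 on counts, which are not used here.

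Groups were taken from the sample labels. TPM were transformed to log2(TPM + 1), and limma 3.58.1 (R 4.3.3) was fitted to all 12 libraries with 1 coefficient per condition and a trended empirical Bayes prior. Two-sided p-values were corrected after Benjamini and Hochberg, over the 12773 gene IDs that averaged 2 TPM or more in any condition, or over the 29003 above 0 without a minimum. A gene passed at an adjusted p under 0.05. The fit was also run on simulated data built from gene IDs above the minimum, and its outcome is not given here. The fit without a minimum was not simulated. Tables and figures were made with Python 3.11.15, pandas 2.3.3, numpy 2.4.6 and matplotlib 3.10.9. Depth is unknown, and no interval for counting error is given.

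Replicate numbers come from the sample titles. Deviations from the condition means of the 18 same-numbered library pairs had correlations across genes of 0.10 to 0.63 (median 0.28), and the 36 pairs with different numbers a median of -0.20. The numbers therefore pair the libraries, and blocked values stand beside results whose call they change. No pair of libraries had identical values.

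The 10 genes, the 5 related lists and the markers were chosen with earlier results of these data known. Named genes were all 10, at most 4 examples per list and comparison with the largest change among those that passed, the 2 closest profiles per tested gene, and MITF. Symbols came from a table of gene names, and 816 of the tested gene IDs had none. Planned protein sequences were not used here. Alternatives are given in the closing section.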

Additional observations from a re-analysis of the deposited data

Results flagged for a closer look

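None of the 10 genes passed the test of the interaction, and 3 of the 59 list genes above the minimum did, against 0.947% of all gene IDs tested there (limma). For these 3 the IFNγ effects differed between siMITF and siCTRL cells. CEACAM1 had an interaction of 0.82 ± 0.12 on the log2 scale (adjusted p = 0.0050, limma), from mean levels of 60.1 and 137 TPM without and with IFNγ after siCTRL and 24.4 and 99.5 TPM after siMITF. JAM2 had 0.71 ± 0.14 (adjusted p = 0.036, limma), with 0.816 and 1.18 TPM after siCTRL and 3.96 and 8.74 TPM after siMITF. PCDH18 had 0.75 ± 0.15 (adjusted p = 0.038, limma), with 0.297 and 0.388 TPM after siCTRL and 0.790 and 2.23 TPM after siMITF. PCDH18 reached 2 TPM only in siMITF + IFNγ libraries and JAM2 only after siMITF, and such a minimum favours a positive interaction. In the fit without a minimum the adjusted p was 0.013 for CEACAM1, 0.018 for PCDH18 and 0.061 for JAM2 (limma), so JAM2 no longer passed.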

How the results depend on the processing

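Of the 10 genes' results, none reversed a call in the settings that covered them, and those that lost or gained one are given in the report. Most settings kept a minimum, so CDH1, CDH13, VCAM1, L1CAM and ALCAM were refitted only with the block. The same holds for the adjusted p-values of CDH2 and NRCAM from the fit without a minimum. Other pseudocounts and the removal of single libraries were not tried for these. Counts of calls among the 5 genes above the minimum were 4 and 4 for siMITF without and with IFNγ, 4 and 3 for IFNγ in siCTRL and siMITF cells, 3 for the combination and 0 for the interaction. The shares of all 12773 gene IDs in that order were 34.8%, 33.1%, 12.9%, 20.2%, 44.5% and 0.947%. CDH2 and NRCAM reached the minimum only through siMITF conditions, so the counts among the 5 genes serve only to compare settings. Without each library in turn they were 4 to 4, 4 to 4, 2 to 4, 3 to 5, 3 to 3 and 0 to 0. The count of 2 came without siCTRL replicate 2 or 3 or siCTRL + IFNγ replicate 1 or 3, and the count of 5 without siCTRL + IFNγ replicate 1. A minimum of 5 TPM for the mean of all libraries left 3 of these genes to test, with 2, 2 and 1 calls for siMITF without and with IFNγ and the combination. An adjusted p under 0.01 left 2 for IFNγ in siCTRL cells. For IFNγ in siMITF cells, median centring and the replicate block each gave 5 calls. There MCAM passed with quantile normalization (adjusted p = 0.022, limma) and with median centring (0.0080), as NRCAM did with the latter (0.043). Without a minimum, the block gave 6, 5, 4, 4, 5 and 0 calls among the 10 genes in that order, against 5, 5, 3, 3, 4 and 0 without the block. The fit with both changes was, like the pseudocounts below and the list counts without a minimum, chosen after seeing the data. Over all tested genes, the block raised calls from 1652 to 3281 for IFNγ in siCTRL cells, from 2574 to 4556 in siMITF cells and from 121 to 276 for the interaction. It changed no other call of the 10 genes than those given. With pseudocounts of 0.5 and 0.1, the log2 ratio of CDH2 to CDH1 was 0.90 and 1.48 in siCTRL, 0.17 and 0.39 in siCTRL + IFNγ, 3.18 and 4.76 in siMITF and 2.31 and 3.48 in siMITF + IFNγ libraries. The ratio of CDH1 to CDH3 was -5.65 and -6.68, -5.96 and -7.01, -5.54 and -7.22, and -5.75 and -7.09. Its order among conditions changed with the pseudocount. The cause of other changes was not tested. The interaction could not be fitted with only the compared conditions. Unknown depth limits all values below 1 TPM.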
